A study of Mus musculus with 6 samples.

Results

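The genes Stra8, Meiosin, Meioc, Ythdc2 and Rbm46 act at the switch from mitotic division to meiosis in germ cells. They were chosen by symbol, and all 5 were found among the 53700 gene identifiers counted in mouse testis. Whole testes were taken at postnatal day 45 from 3 mice with the genotype MSL3 WT (WT) and 3 with the genotype MSL3 cKO (cKO), conditional knockouts of a floxed Msl3 allele. All 6 mice carry the strain label Msl3em1Forni/C57BL/6J. Which Cre line was used, in which cells it acts and which exons it removes are not given in the sources used here. Total RNA was sequenced as single reads of 75 bp, and the values are counts of opposite-strand reads per gene. The series asks whether losing Msl3, a subunit of a chromatin complex that acetylates histones, alters spermatogenesis.

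Retinoic acid made in the testis induces Stra8 in spermatogonia that are about to enter meiosis. The Stra8 protein pairs with Meiosin, and together they switch on genes of meiotic prophase. Meioc, Ythdc2 and Rbm46 act on RNA instead: they form a complex that removes transcripts of the mitotic programme, so that cells stay in meiosis once they have entered it. In an adult testis the cells at this switch are a small fraction of all cells, beside later spermatocytes, spermatids and somatic cells. In RNA from whole tissue, fewer cells of a type and less RNA per cell cannot be told apart.

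Promoter sequences are shown for Stra8 as the retinoic acid target, and for Meiosin and Rbm46 because they hold the letters CNCCTCAG, which are known from promoters that Stra8 binds. Each runs from 250 bases before to 50 bases after a RefSeq start (GRCm38.p6), 5′ to 3′ on the strand of the gene. The Stra8 window is chr6:34920698-34920997 (plus strand), the Meiosin window chr7:19118295-19118594 (minus strand) and the Rbm46 window chr3:82876434-82876733 (minus strand). Capitals mark AGGTCA, the half-site of retinoic acid receptors, CACGTG, the E-box read by helix-loop-helix proteins such as Max, and CNCCTCAG, each searched on both strands.
Stra8: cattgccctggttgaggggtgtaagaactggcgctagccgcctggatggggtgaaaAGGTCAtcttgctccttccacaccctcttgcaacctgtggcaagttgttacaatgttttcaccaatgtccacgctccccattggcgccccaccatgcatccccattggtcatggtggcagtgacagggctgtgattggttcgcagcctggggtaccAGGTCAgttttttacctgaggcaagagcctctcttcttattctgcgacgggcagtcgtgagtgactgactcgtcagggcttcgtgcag
Meiosin: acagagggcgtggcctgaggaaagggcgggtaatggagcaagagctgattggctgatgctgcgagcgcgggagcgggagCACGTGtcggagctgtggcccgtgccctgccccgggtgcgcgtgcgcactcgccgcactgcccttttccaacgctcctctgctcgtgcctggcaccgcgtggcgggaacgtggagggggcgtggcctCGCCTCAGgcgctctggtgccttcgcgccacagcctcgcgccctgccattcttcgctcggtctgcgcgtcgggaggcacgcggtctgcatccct
Rbm46: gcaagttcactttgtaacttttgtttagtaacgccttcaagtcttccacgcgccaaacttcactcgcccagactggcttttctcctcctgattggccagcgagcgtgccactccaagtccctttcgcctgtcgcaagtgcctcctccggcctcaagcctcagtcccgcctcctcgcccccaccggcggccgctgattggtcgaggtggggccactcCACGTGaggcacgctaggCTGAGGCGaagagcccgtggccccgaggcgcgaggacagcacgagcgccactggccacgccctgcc

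The Stra8 window held AGGTCA at 2 places, starting 194 and 38 bases before the start, and neither of the other motifs. Meiosin held an E-box 171 bases before its start and CGCCTCAG 44 bases before it. Rbm46 held an E-box 34 bases before its start and, read on the opposite strand, CNCCTCAG 16 bases before it. None of the 3 motifs occurred in the Meioc window, and RefSeq promoters were matched for 4 of the 5 genes, Ythdc2 being the other. The Meioc window (chr11:102665335-102665634) and the Stra8 window lie inside the gene spans given below. Sequence at the starts of those 2 spans was therefore not searched. Of all 32851 promoters of this length, 16.3% held AGGTCA, 7.15% CACGTG and 7.94% CNCCTCAG. A match describes letters in a window and is not evidence of binding.

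The libraries held 56991431 to 73766444 reads assigned to genes. Msl3 itself was at 16.9 ± 1.68 CPM (counts relative to TMM-scaled library size; SD, n = 3) in WT and 15.6 ± 0.649 CPM (SD, n = 3) in cKO, with an edgeR adjusted p of 0.551. Since its level was not lowered detectably, the groups are called by their labels. The share of all reads on no exon of the counted strand is called the outside-gene share here. It also takes in intronic and antisense reads. Its values were 4.98%, 6.65% and 6.08% in WT 1, 2 and 3 and 5.05%, 6.94% and 5.85% in cKO 1, 2 and 3. Summed round spermatid markers were at 1093 to 1123 CPM in WT and 945 to 1039 CPM in cKO, without overlap. All 5 of these markers were below 0 in log2 fold change, and 2 of 5 were lower in cKO at an unadjusted p under 0.05, where 6.54% of all genes were. Izumo1 alone of the 5 had groups without overlap, beside 18.9% of all genes. Of the epididymis markers, Lcn8 had 0 reads in every library, Lcn5 and Cst11 had under 10 and Crisp1 at most 12.

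No difference between genotypes was detected for any of the 5 genes. All 5 passed the filter on low counts. By edgeR's quasi-likelihood test, 0 of 5 had an adjusted p under 0.05, where 0.0183% of the 21902 genes tested did. At an unadjusted p under 0.05 it was again 0 of 5, against 13.9% of all genes, and Ythdc2 alone passed that bar in some alternatives. DESeq2 called 0 of 5, against 1.48% of the genes it gave an adjusted p. The WT and cKO libraries overlapped for each of the 5 genes, whereas 18.9% of all genes had groups without overlap. The median log2 fold change of the 5 genes was 0.039, beside 0.0031 for all genes tested.

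**Figure D1:**
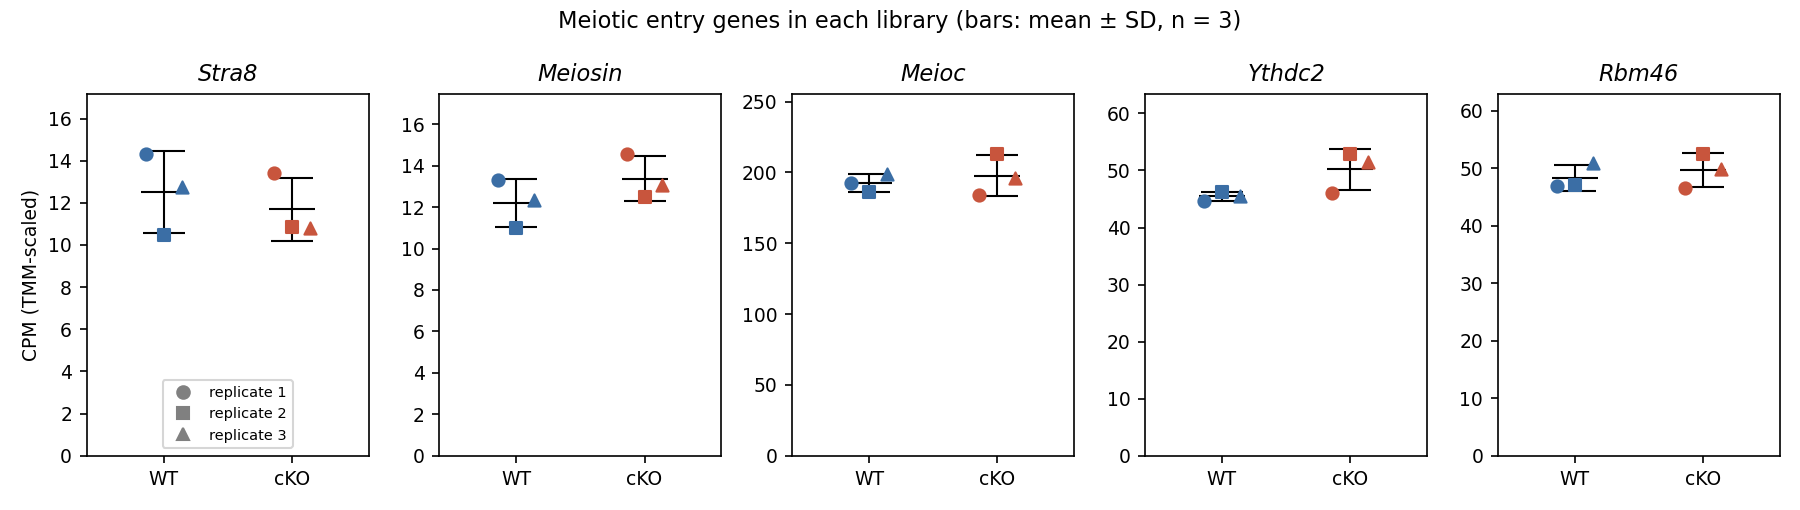
CPM of each gene (vertical axis, TMM-scaled, from 0) in the WT (blue) and cKO (red) libraries; points are libraries, with the shape giving the replicate number, and bars are mean ± SD (n = 3). For each of the 5 genes the ranges of the 2 groups overlap; Stra8 runs from 10.5 to 14.3 CPM.

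Stra8 (ENSMUSG00000029848) lies on chromosome 6, from 34920163 to 34939344 on the plus strand of GRCm38 (GENCODE M21), with 10 exonic blocks. It had 842, 680 and 793 reads in WT 1, 2 and 3 and 978, 606 and 632 reads in cKO 1, 2 and 3. Scaled, these were 14.3, 10.5 and 12.8 CPM in WT and 13.4, 10.8 and 10.8 CPM in cKO. WT 1 and cKO 1 were the highest libraries and WT 2 the lowest, so each group spanned most of the range of the other. Stra8 averaged 12.5 ± 1.93 CPM (SD, n = 3) in WT and 11.7 ± 1.49 CPM (SD, n = 3) in cKO. The log2 fold change was -0.10 (SE 0.12, edgeR adjusted p 0.769). The cKO level was thus 93.6% of WT, with 95% limits of 77.7% and 112.7%. The sign turned without WT replicate 1, where the log2 fold change was 0.013. Stra8 was the most variable of the 5 genes, with a coefficient of variation of 15.4% in WT and 12.7% in cKO.

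Meiosin (ENSMUSG00000085601), named Gm4969 in the annotation, is a protein with a helix-loop-helix and an HMG box. Its gene lies on chromosome 7, from 19099046 to 19118368 on the minus strand, with 10 exonic blocks. It had 781, 713 and 766 reads in the WT libraries and 1063, 698 and 764 in the cKO libraries. These equal 13.3, 11.0 and 12.3 CPM in WT and 14.6, 12.5 and 13.1 CPM in cKO. As with Stra8, WT 2 was the lowest library and replicate 1 the highest of each group, and WT 1 lay above both cKO 2 and cKO 3. Means were 12.2 ± 1.15 CPM (SD, n = 3) in WT and 13.4 ± 1.08 CPM (SD, n = 3) in cKO. That is a log2 fold change of 0.13 (SE 0.096, edgeR adjusted p 0.553), or 109.8% of WT with 95% limits of 94.98% and 126.9%.

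Meioc (ENSMUSG00000051455), the partner that Ythdc2 needs to act in early meiosis, lies on chromosome 11, from 102663716 to 102682237 on the plus strand, with 9 exonic blocks. It was counted 11321, 12078 and 12369 times in WT and 13443, 11923 and 11444 times in cKO, or 192.6, 186.1 and 199.0 CPM against 184.3, 213.1 and 195.9 CPM. The cKO group held both the lowest library, cKO 1, and the highest, cKO 2. Meioc averaged 192.6 ± 6.44 CPM (SD, n = 3) in WT and 197.8 ± 14.5 CPM (SD, n = 3) in cKO. Its log2 fold change of 0.038 (SE 0.071, edgeR adjusted p 0.853) puts cKO at 102.7% of WT, with 95% limits of 92.2% and 114.4%. Without cKO replicate 2 it was -0.018.

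Ythdc2 (ENSMUSG00000034653) encodes an RNA helicase with a YTH domain, which binds the RNA mark m6A. It lies on chromosome 18, from 44827746 to 44889724 on the plus strand, with 30 exonic blocks. WT libraries had 2629, 3001 and 2827 reads and cKO libraries 3365, 2961 and 3008. In CPM these were 44.7, 46.2 and 45.5 in WT and 46.1, 52.9 and 51.5 in cKO. WT was tight, with a coefficient of variation of 1.67%. The cKO values were wider: cKO 2 and cKO 3 lay above every WT library, while cKO 1 lay just under WT 2. Ythdc2 averaged 45.5 ± 0.761 CPM (SD, n = 3) in WT and 50.2 ± 3.58 CPM (SD, n = 3) in cKO. This gave a log2 fold change of 0.14 (SE 0.071; unadjusted p 0.0719, edgeR adjusted p 0.397), and cKO was at 110.3% of WT with 95% limits of 98.99% and 122.9%. This was the lowest p of the 5 genes. Without cKO replicate 1 the log2 fold change was 0.20, with an unadjusted p of 0.0133 and an edgeR adjusted p of 0.161. Its unadjusted p was also under 0.05 with a replicate block (0.0492; edgeR adjusted p 0.266) and once the outside-gene share was a covariate (0.0332; edgeR adjusted p 0.192).

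Rbm46 (ENSMUSG00000033882), an RNA-binding protein of the same complex, lies on chromosome 3, from 82837228 to 82876483 on the minus strand, with 7 exonic blocks. Its reads were 2760, 3062 and 3164 in WT and 3401, 2940 and 2914 in cKO. Scaled levels were 46.95, 47.2 and 50.9 CPM in WT and 46.6, 52.5 and 49.9 CPM in cKO. As for Meioc, cKO 1 was the lowest library and cKO 2 the highest. Rbm46 averaged 48.3 ± 2.22 CPM (SD, n = 3) in WT and 49.7 ± 2.97 CPM (SD, n = 3) in cKO. With a log2 fold change of 0.039 (SE 0.072, edgeR adjusted p 0.851), cKO was at 102.7% of WT, with 95% limits of 92.2% and 114.5%. Leaving out cKO replicate 2 gave -0.0023.

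**Figure D2:**
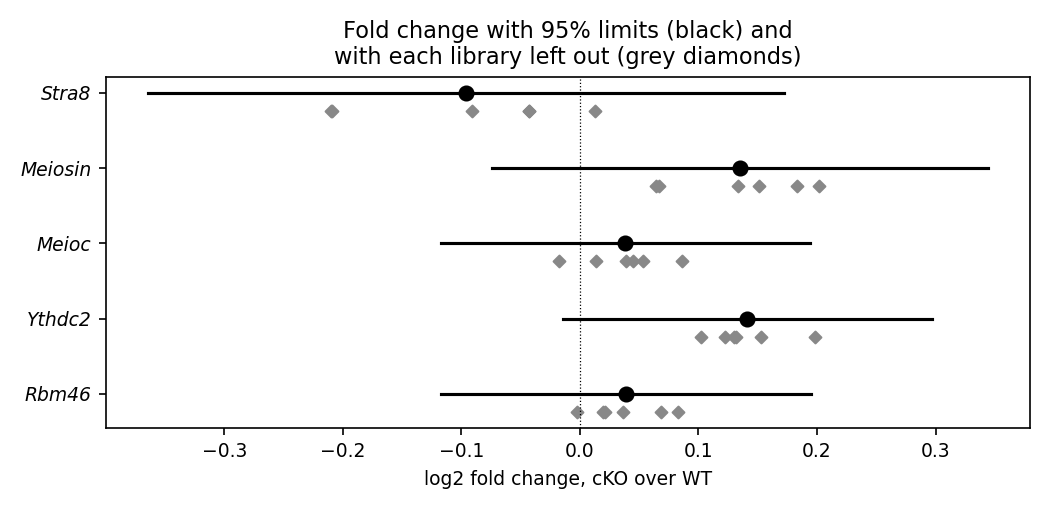
Log2 fold change of cKO over WT (horizontal axis) for each gene, with edgeR's estimate (black point), its 95% limits (black line) and the estimates with each of the 6 libraries left out (grey diamonds). Every interval includes 0; that of Stra8 is the widest, from -0.36 to 0.17.

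Nearly all stranded reads of the 5 genes lay on the expected strand. On the other strand column Meiosin had 0 reads in every library, Stra8 at most 8, Ythdc2 at most 16 and Rbm46 at most 35. Meioc had 221 to 323, so that 97.7% to 98.1% of its stranded reads lay on the expected strand. GENCODE M21 places 0 other genes over any of the 5.

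Levels of the 5 genes were then compared per length of exon. On the scale of CPM per kilobase of merged exons (RPKM), Meioc was the highest of the 5, at 41.7 ± 1.39 (SD, n = 3) in WT and 42.8 ± 3.14 (SD, n = 3) in cKO. Rbm46 followed at 19.3 ± 0.887 (SD, n = 3) in WT and 19.9 ± 1.19 (SD, n = 3) in cKO. Next came Stra8, at 6.94 ± 1.07 (SD, n = 3) and 6.48 ± 0.826 (SD, n = 3). Ythdc2 was at 5.12 ± 0.0857 (SD, n = 3) and 5.65 ± 0.404 (SD, n = 3), and Meiosin was the lowest at 2.60 ± 0.246 (SD, n = 3) and 2.85 ± 0.230 (SD, n = 3). Meioc stood at the percentile 92.5 of all tested genes on this scale and Meiosin at 52.3.

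This order was the same in all 6 libraries, but 1 step of it was narrow. Stra8 exceeded Ythdc2 by 1.01-fold to 1.58-fold depending on the library. With the longest annotated transcript as the length in place of merged exons, a choice made after seeing the data, that ratio ran from 0.819 to 1.28, so Stra8 and Ythdc2 cannot be ordered. The step from Meioc to Rbm46 was 2.12-fold to 2.22-fold, and that from Ythdc2 to Meiosin 1.67-fold to 2.24-fold.

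The deviations of each gene from its own mean were set side by side, a pattern looked at after the values were seen. Stra8 and Meiosin were high in replicate 1 of both groups. Meioc, Ythdc2 and Rbm46 were below their means in WT 1, WT 2 and cKO 1 and highest in cKO 2. None of the relations that follow passed correction at 0.05. Over the 6 libraries, log2 CPM of Meioc and Rbm46 gave a Pearson r of 0.93 (exact permutation p 0.0042) and a Spearman rho of 0.94 (exact permutation p 0.017). After Benjamini-Hochberg adjustment over 15 relations, exact permutation p was 0.063 and 0.25. Without the 2 libraries farthest from the median of Meioc, cKO 1 and cKO 2, r was 0.85. Stra8 and Meiosin gave r = 0.64 and rho = 0.71 (exact permutation p 0.178 and 0.136, adjusted 0.324 and 0.292), and r fell to 0.26 without WT 1 and cKO 1.

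The 5 genes were also set against the outside-gene share, the reads on no exon of the counted strand. The share was measured per library, and whether it reflects the library or the tissue was not tested. None of these relations passed correction either. Against that share Stra8 had r = -0.84 and rho = -0.71 (exact permutation p 0.0569 and 0.136, adjusted 0.324 and 0.292), and r = -0.74 without WT 1 and cKO 2. Meiosin had r = -0.78 and rho = -0.77 (exact permutation p 0.0681 and 0.103, adjusted 0.324 and 0.292), and r = -0.99 without the same libraries. Meioc, Ythdc2 and Rbm46 had r of 0.57, 0.56 and 0.66 and rho of 0.54, 0.71 and 0.77 (exact permutation p from 0.103 to 0.297, adjusted from 0.292 to 0.446). Without WT 1 and cKO 2, their r was 0.23, -0.062 and 0.24. With that share fitted as a covariate, an alternative added after the data had been seen, the log2 fold changes were -0.087 for Stra8, 0.14 for Meiosin and Ythdc2, 0.033 for Meioc and 0.035 for Rbm46, and no edgeR adjusted p was under 0.192.

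**Figure D3:**
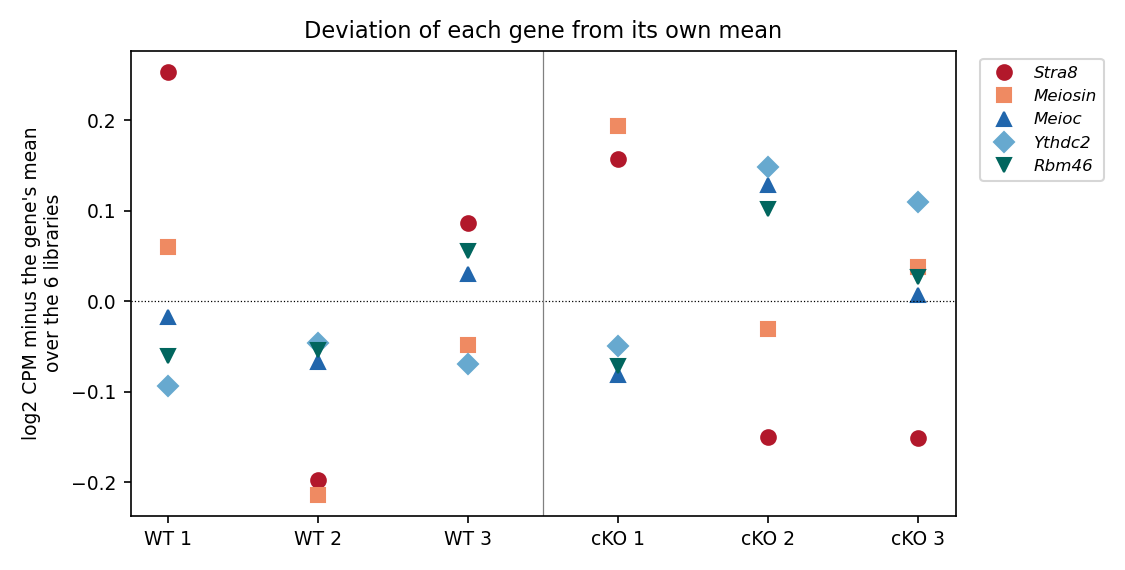
Log2 CPM of each gene minus its own mean over the 6 libraries (vertical axis), by library (horizontal axis), with a line between WT and cKO. Stra8 spans from -0.20 in WT 2 to 0.25 in WT 1, while Meioc and Rbm46 stay within -0.08 to 0.13 and keep close to each other.

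The balance between partners was compared as the ratio of their reads within a library, which needs no scaling. Stra8 had 1.08, 0.954 and 1.04 reads per read of Meiosin in WT 1, 2 and 3 and 0.920, 0.868 and 0.827 in cKO 1, 2 and 3. All cKO ratios lay below all WT ratios. The nearest libraries were within counting error, with exact binomial 95% limits of 0.857 to 1.06 for WT 2 and 0.843 to 1.00 for cKO 1, and such limits cover counting error only. Ythdc2 had 0.953, 0.980 and 0.893 reads per read of Rbm46 in WT and 0.989, 1.01 and 1.03 in cKO, with limits of 0.932 to 1.03 for WT 2 and 0.943 to 1.04 for cKO 1. Of the 10 ratios among the 5 genes, which share genes with each other, these 2 had groups without overlap. By CPM 18.9% of single genes had none, but the share among ratios of other gene pairs was not computed. Meioc and Rbm46 held the steadiest ratio, at 3.91 to 4.10 in WT and 3.93 to 4.06 in cKO. No test was made of these ratios.

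Genes with the most similar profile were sought among the other 12195 tested genes that averaged 5 CPM or more, by the root mean square difference in centred log2 CPM over the 6 libraries. For Stra8 they included Ankrd54 (0.040) and Il17d (0.045), and for Meiosin they were 1700067K01Rik (0.016), Slc4a2 (0.018) and Polrmt (0.020). Nearest to Meioc were Phkb (0.012), Zfp800 (0.014) and Uhrf2 (0.017). Elac1 (0.013), Zfyve16 (0.015) and Prpf4b (0.016) were nearest to Ythdc2. Chml (0.020), Rgs22 (0.021) and Rbl1 (0.021) were nearest to Rbm46. None of the nearest genes was another of the 5. The median difference over all 12195 candidates ran from 0.12 for Rbm46 to 0.19 for Stra8. Among so many candidates over 6 libraries some genes must lie close, and no link to the named genes was tested.

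Genes on which the switch acts were examined next. Of 26 early meiotic prophase genes, the kind that Stra8 and Meiosin switch on, all were tested and 0 had an edgeR adjusted p under 0.05. The median log2 fold change was 0.03, with 16 genes above 0 and 10 below. Summed, the 26 genes were at 2649 to 2678 CPM in WT and 2688 to 2916 CPM in cKO, without overlap. How often sums of other gene sets lack overlap was not computed, here or for the lists below. At an unadjusted p under 0.05, 2 of 26 were higher in cKO and 0 lower, where all genes gave 7.33% and 6.54%. Over the 15 alternatives these counts ran from 1 to 4 and from 0 to 2. Smc1b, a cohesin subunit of meiotic chromosomes, was at 228.8, 221.8 and 214.4 CPM in WT and 237.6, 312.3 and 268.5 CPM in cKO, a log2 fold change of 0.30 (SE 0.091, edgeR adjusted p 0.288). Its groups did not overlap, as for 4 of the 26 genes, all higher in cKO, beside 18.9% of all genes. For Smc1b cKO 2 was the highest library. Tex15, needed for repair of meiotic breaks and for silencing transposons, had 124.3, 156.3 and 140.5 CPM in WT and 136.4, 205.6 and 183.9 CPM in cKO, 0.32 on the log2 scale (SE 0.13, edgeR adjusted p 0.320). Without cKO replicate 1 both passed, with edgeR adjusted p of 0.0223 for Smc1b and 0.0200 for Tex15, as they did without a filter on low counts (0.0188 and 0.0101). Over all genes, 628 passed without cKO replicate 1 and 757 without the filter, against 4 in the main fit. DESeq2 called 193, the replicate block 49 and the outside-gene covariate 44. These totals also stand beside the passes named in the lists below.

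The most abundant genes of this list differed by less than the SE of their log2 fold change. Stag3, another meiotic cohesin subunit, had 553.3 ± 18.0 CPM (SD, n = 3) in WT and 573.5 ± 23.7 CPM (SD, n = 3) in cKO, with an edgeR adjusted p of 0.761. Sycp2, of the axis of meiotic chromosomes, had 359.2 ± 8.96 and 377.2 ± 32.2 CPM (SD, n = 3; edgeR adjusted p 0.706). Syce3, of the central element between paired chromosomes, pointed the other way, from 45.8 ± 2.83 to 40.3 ± 4.20 CPM (SD, n = 3; log2 fold change -0.18, edgeR adjusted p 0.366).

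Mitotic cell cycle genes, a kind of transcript that the Meioc, Ythdc2 and Rbm46 complex removes, were also uncalled, 0 of 14. Which cells of the testis gave these reads was not tested, so the list does not measure the activity of the complex. The median log2 fold change of the 14 genes was 0.07, with 11 above 0. Their sum was 848.7 to 891.2 CPM in WT and 907.0 to 969.6 CPM in cKO, without overlap. At an unadjusted p under 0.05, 3 of 14 were higher and 0 lower, beside 7.33% and 6.54% of all genes. The count of 3 was 1 without WT replicate 2 or WT replicate 3 and 2 to 4 in the other alternatives. Mki67, a marker of dividing cells, was at 34.9, 41.3 and 38.5 CPM in WT and 39.5, 64.1 and 58.3 CPM in cKO. Only cKO 2 and cKO 3 stood above the WT libraries. It had a log2 fold change of 0.50 (SE 0.14; edgeR adjusted p 0.288). It passed without cKO replicate 1 (edgeR adjusted p 0.0027), without a filter on low counts (4.7e-06), with DESeq2 (0.0278), with a replicate block (0.0431) and with the outside-gene share fitted as a covariate (0.0419). Plk1, a mitotic kinase, had a log2 fold change of 0.20 (SE 0.073, edgeR adjusted p 0.306), and Top2a, a topoisomerase of dividing cells, 0.16 (SE 0.066, edgeR adjusted p 0.331). Ccnb2, a cyclin of cell division, was at 162.2 ± 1.96 and 166.9 ± 3.13 CPM (SD, n = 3; edgeR adjusted p 0.805). Ccna2, the cyclin best known as a target of the complex, was named outside the rule for naming genes, after its values were seen: it was at 10.4 and 10.6 CPM, with an edgeR adjusted p of 0.923.

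Upstream of Stra8, the retinoic acid list had 15 of 17 genes with enough reads and 0 called, with a median log2 fold change of 0.03. At an unadjusted p under 0.05, 2 of 15 were higher and 1 lower, beside 7.33% and 6.54% of all genes. Single libraries moved these counts: leaving out WT 3 gave 0 higher and 1 lower, WT 2 gave 1 and 0, cKO 2 gave 2 and 0, cKO 1 or cKO 3 gave 1 and 2, and WT 1 gave 3 and 3. Cyp26b1, which breaks retinoic acid down, was at 50.2, 49.0 and 46.0 CPM in WT and 51.9, 58.8 and 64.1 CPM in cKO, without overlap. Its log2 fold change was 0.27 (SE 0.083, edgeR adjusted p 0.288), and it passed without cKO replicate 1 (edgeR adjusted p 0.0300). Rara, a retinoic acid receptor, had 20.4, 18.0 and 18.1 CPM in WT and 22.2, 21.4 and 21.4 CPM in cKO, 0.20 on the log2 scale (SE 0.078, edgeR adjusted p 0.312). Of the enzymes that make retinoic acid, Aldh1a1 had a log2 fold change of -0.24 (SE 0.096, edgeR adjusted p 0.315) and Aldh1a2 one of 0.06 (SE 0.069, edgeR adjusted p 0.717). Summed, the list was at 654.0 to 711.7 CPM in WT and 600.0 to 672.7 CPM in cKO, with overlap. Singly, 2 genes higher and 1 lower in cKO had groups without overlap, beside 18.9% of all genes.

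Germ cell regulators that promote or restrain Stra8 had 13 of 14 genes tested, 0 called and a median log2 fold change of 0.09. The sum of this list was 1023 to 1105 CPM in WT and 1098 to 1161 CPM in cKO, with overlap. Above 0 were 12 of the 13, and 1 was higher at an unadjusted p under 0.05 and 0 lower, beside 7.33% and 6.54% of all genes. Leaving out WT 1 or cKO 1 made it 2, as did some other alternatives. Nanos2, which represses Stra8 in stem cells, had at most 2 reads in a library. Rb1, a cell cycle brake that Stra8 binds, was at 32.5, 29.5 and 30.7 CPM in WT and 33.0, 38.7 and 37.9 CPM in cKO (log2 fold change 0.24, SE 0.080, edgeR adjusted p 0.298). Mga, part of a repressor of germ cell genes, was at 43.4, 51.1 and 47.8 CPM in WT and 42.3, 69.1 and 59.8 CPM in cKO (0.26, SE 0.14, edgeR adjusted p 0.419). Without cKO replicate 1 both passed, with edgeR adjusted p of 0.0489 for Rb1 and 0.0212 for Mga. Dazl, which licenses germ cells for meiosis, had 190.4 ± 11.0 and 207.2 ± 6.44 CPM (SD, n = 3; edgeR adjusted p 0.439), and Dmrtb1, a factor of the passage from spermatogonia to meiosis, 553.8 ± 25.1 and 567.3 ± 49.2 CPM (SD, n = 3; edgeR adjusted p 0.876).

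Genes that write, erase and read m6A, with the exonuclease Xrn1 that Ythdc2 binds, had 0 of 15 called and the highest median of the 5 lists, 0.13. All 15 log2 fold changes were above 0, and at an unadjusted p under 0.05 6 of 15 were higher and 0 lower. Of all 21902 genes 11102 were above 0, and 7.33% were higher and 6.54% lower at that p. That count was 2 without WT replicate 3 or without cKO replicate 3, 3 without WT replicate 2 and with library totals alone, 4 without cKO replicate 2 and without a filter on low counts, and 5 to 8 in the others. The 15 genes summed to 607.1 to 654.4 CPM in WT and 668.4 to 714.9 CPM in cKO, without overlap. Singly, 5 of the 15 had groups without overlap, all higher in cKO, beside 18.9% of all genes. Zc3h13, a subunit of the m6A writer, was 1 of these 5, at 18.9, 16.6 and 17.4 CPM in WT and 20.5, 26.4 and 24.1 CPM in cKO. Its log2 fold change was 0.42 (SE 0.098, edgeR adjusted p 0.276), and it passed with DESeq2 (adjusted p 0.0185), without a filter on low counts (edgeR adjusted p 0.0013) and without cKO replicate 1 (edgeR adjusted p 0.0113).

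Ythdc1, the nuclear m6A reader, had 70.2, 69.9 and 68.9 CPM in WT and 77.3, 87.6 and 78.0 CPM in cKO (log2 fold change 0.22, SE 0.070, edgeR adjusted p 0.288), and a lincRNA overlaps its exons on the same strand. Mettl14, of the catalytic core of the writer, had 13.4, 12.8 and 12.6 CPM against 14.4, 14.8 and 15.2 CPM (0.19, SE 0.076, edgeR adjusted p 0.313). The demethylase Fto and the writer subunit Virma, the most abundant of the list, had edgeR adjusted p of 0.777 and 0.522.

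**Figure D4:**
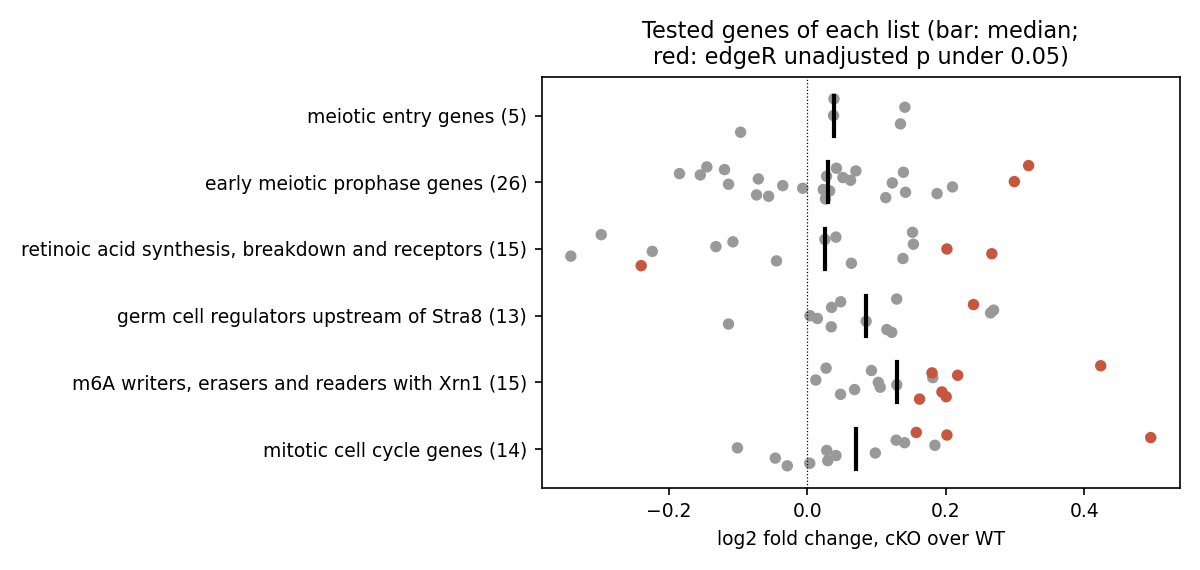
Log2 fold change of cKO over WT (horizontal axis) for the tested genes of each list, with their number in brackets; points are genes, red where the edgeR unadjusted p is under 0.05, and bars are medians. None of the 5 meiotic entry genes is red, and the list medians run from 0.03 to 0.13.

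Markers of the cells around the switch were measured beside these lists. Undifferentiated spermatogonia had 9 of 10 markers tested, 8 of them above 0, with a summed level of 81.3 to 93.7 CPM in WT and 90.4 to 94.8 CPM in cKO. Differentiating spermatogonia, whose 6 markers all stand in the regulator or mitotic lists above and so add no separate values, had 6 of 6 above 0, with sums of 598.5 to 648.3 and 608.8 to 691.4 CPM. Dmrtb1 alone made up 553.8 CPM of these in WT and 567.3 CPM in cKO on average. Pachytene and diplotene spermatocytes had 5 of 6 above 0, with sums of 3614 to 3933 and 3668 to 4030 CPM. Elongating spermatids had 3 of 5 below 0, with sums of 14662 to 16070 and 12289 to 15365 CPM. In Sertoli cells, the source of much of the retinoic acid, 9 of 10 were above 0, with sums of 1296 to 1570 and 1318 to 1708 CPM. Most of these sums was Clu, at 1091 CPM in WT and 1187 CPM in cKO on average. Leydig cells had 5 of 7 below 0, 2 of them lower at an unadjusted p under 0.05, with sums of 786.9 to 944.3 and 732.4 to 948.3 CPM. Peritubular myoid cells had 4 of 5 below 0, with 1 lower and 1 higher at that p and sums of 118.2 to 122.0 and 113.0 to 134.7 CPM. Macrophages had 6 of 7 below 0, 3 of them lower at that p, and a median log2 fold change of -0.24. Their sums were 109.2 to 125.2 and 111.5 to 122.8 CPM, of which Mrc1, the most abundant and the 1 above 0, made up 47.9 CPM in WT and 57.0 CPM in cKO on average. Endothelial cells had 4 of 4 above 0, with sums of 18.5 to 19.8 and 20.3 to 23.9 CPM, without overlap. At an unadjusted p under 0.05, 2 of 10 Sertoli markers, 1 of 4 endothelial markers and Mrc1 were higher. At that p 1 of 6 spermatocyte and 1 of 5 elongating spermatid markers were lower, and no spermatogonial marker passed. Of all genes, 7.33% were higher and 6.54% lower at that p. No marker was called, and the part of these cells in the levels of the 5 genes was not tested.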

How the data were processed

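The deposited files hold raw counts of reads per gene, unstranded and by strand. The submitters' processing notes name STAR, HTSeq, DESeq2 and the build mm10, without roles or versions. The annotation release and read filters are not given in the sources used here. Opposite-strand counts held 96.0% to 96.2% of the stranded reads and were used. Lines for reads not assigned to a single gene (14.8% to 16.7% of a library) were left out.

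Symbols and lengths came from GENCODE M21 (GRCm38), which matched 52147 of 53700 identifiers. RefSeq lists Meiosin and Gm4969 as synonyms.

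Genes were tested with edgeR 4.0.16 in R 4.3.3: filterByExpr (minimum count 10), TMM scaling, quasi-likelihood F tests between cKO and WT, and Benjamini-Hochberg adjustment over 21902 genes at 0.05. The procedure was tested on simulated counts, drawn independently for each library and so without any factor shared between libraries. Standard errors were derived from the F statistic. Alternatives were RLE scaling, library totals, other filters, unstranded counts, a replicate block, robust fitting, leaving out each library, DESeq2 1.42.0 and, added later, the outside-gene read share fitted as a covariate.

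The genes and lists were chosen with earlier results of these data known. Named were the 5 genes, Msl3 and, per pathway list, the 2 genes with the highest mean CPM and the 3 with the lowest p. The labels call the samples biological replicates. A gene that the rule for similar profiles names is not reported here.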

Additional observations from a re-analysis of the deposited data

How the results depend on the processing

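None of the 5 genes was called under any of the 15 alternatives, with adjusted p from 0.161 to 0.992, and Meiosin and Ythdc2 kept their sign in all of them. Leaving out a library turned 3 signs: Stra8 ran from -0.21 to 0.013 (the latter without WT replicate 1), Meioc from -0.018 to 0.086 and Rbm46 from -0.0023 to 0.082, both lowest without cKO replicate 2. The number of genes called, 4, was 757 without a filter on low counts, 193 with DESeq2, 49 with the replicate block, 44 with the outside-gene share fitted as a covariate, 2 with unstranded counts and 1 to 628 when a library was left out, highest without cKO replicate 1. Deviations from the group means correlated between libraries of the same number at 0.34, 0.26 and -0.04. Between libraries of different numbers the correlations ran from -0.33 to 0.11. The deviations sum to 0 within each group, so positive values for the same number partly fix negative ones between different numbers. A factor shared by replicates 1 or 2 of both groups was not tested. The labels do not say that the numbers pair the mice, so the block was kept as an alternative. With the block 0 of the 5 genes was called. List medians moved with single libraries: from 0.014 to 0.052 for early prophase genes (0.0029 with library totals alone), 0.028 to 0.12 for regulators upstream of Stra8, 0.080 to 0.19 for m6A genes and 0.039 to 0.14 for mitotic genes. The retinoic acid median ran from -0.026 to 0.091. For these changes the cause was not tested. Stra8, with 606 to 978 reads, had an SE of 0.12, and Mettl14, with 783 to 1048 reads, one of 0.076, so reads alone did not set the precision. With 3 mice a group, the 95% limits of Stra8 leave a fall to 77.7% or a rise to 112.7% of WT undecided.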
